A study of Macaca mulatta with 80 samples.

Results

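PLEKHA2, GSKIP, CCDC28A, BBX and EFEMP1 are 5 of the 19775 genes measured in the hippocampal formation of the rhesus monkey, and their signal was higher in adults than in newborns. They were chosen for large rises between birth and adulthood in every region, that is, they were selected on the adult minus newborn difference of these same arrays, which is given below as a description with no test. A gene was found through the probe sets annotated to its symbol alone, and the probe set with the highest mean over the 80 arrays stood for it. The 5 genes had 15 probe sets in all.

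The study hybridised RNA from 16 male monkeys to human Affymetrix arrays, 1 array for each of 5 regions of each animal. The regions were the dentate gyrus (DG), CA3, CA1, the subiculum (Sub) and the entorhinal cortex (EC), each cut out with all its layers. Of the animals, 4 were newborns aged 1 day, 4 were 6 months old, 4 were 1 year old and 4 were adults of 6 to 12 years, and none had a genetic change or an experimental treatment by the labels. The number in an array's title, 1 to 16, was taken to name the animal, so that regions could be compared within an animal.

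PLEKHA2 (TAPP2) is an adaptor whose pleckstrin homology domain binds the lipid PI(3,4)P2, a product of phosphoinositide 3-kinase signalling. GSKIP binds the kinase GSK3 and the regulatory subunit of protein kinase A, and so brings both kinases together. CCDC28A is a coiled-coil protein of little known function and a paralog of CCDC28B, which modifies Bardet-Biedl syndrome. BBX carries an HMG box, a DNA-binding domain it shares with the SOX and TOX factors. EFEMP1 encodes fibulin-3, a secreted glycoprotein of the extracellular matrix.

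Neuronal markers gave a high signal in every region: the lowest regional mean was 11.83 for SYT1 and 12.46 for SNAP25, both in DG, on the normalized log2 scale used throughout. Of the markers of dentate granule cells, PROX1 averaged 7.27 in DG and 7.21 in CA3, which hardly sets DG apart, while CALB1 averaged 9.11 in DG, 7.64 in CA3, 6.84 in Sub, 8.12 in EC and 9.45 in CA1, whose pyramidal cells also express it. The array carries control probes for both ends of GAPDH, and their 3'/5' log2 ratio, a sign of RNA degradation when high, had group means from 1.04 to 1.69 in 16 of the 20 groups. It was 2.38 to 3.16 in adult CA3 and in CA1 at 6 months, at 1 year and in adults, and these 4 groups are read apart. Within the other groups the EC array of number 8 (2.69) and the Sub array of number 4 (2.72) were as high. The same ratio for ACTB had means of 4.43 in adult CA3, 4.06 in CA1 at 1 year and 4.22 in adult CA1. In CA1 at 6 months it was 3.68, below newborn CA1 at 3.80, so ACTB did not set that group apart. The ACTB mean of EC at 1 year was 3.52. The ratio named below is that of GAPDH.

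Averaged over the 5 regions, PLEKHA2 was 1.63 higher in adults than in newborns on the log2 scale (3.10-fold) and ranked 1 among all genes. GSKIP was 1.56 higher (rank 2), CCDC28A 1.47 (rank 5), EFEMP1 1.41 (rank 7) and BBX 1.35 (rank 8). Over DG, EC and Sub alone, where the GAPDH ratio was low, the differences were 1.397 for PLEKHA2, 1.54 for GSKIP, 1.39 for CCDC28A, 1.56 for EFEMP1 and 1.15 for BBX, with ranks of 7, 3, 10, 2 and 20. In 24 of the 25 pairs of gene and region every adult array lay above every newborn array. That separation was found for 6.09% of all genes in DG, 11.5% in CA3, 13.5% in CA1, 5.26% in Sub and 7.46% in EC. Since this contrast chose the genes, nothing is read from the comparison of these shares.

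The description of the genes as rising steadily in every region went against the data in 2 ways. BBX in DG was only 0.27 higher in adults, and its newborn arrays (6.32 to 6.80) overlapped its adult arrays (6.63 to 7.01). By its smallest regional difference BBX ranked 199 among all genes, while CCDC28A ranked 1, GSKIP 2, PLEKHA2 4 and EFEMP1 6. Only 18 of the 25 courses, CA1 and adult CA3 included, rose at each of the 3 age steps in their group means. PLEKHA2 did so in 5 of 5 regions, GSKIP and CCDC28A in 4, BBX in 3 and EFEMP1 in 2. Falls of any size were counted. The largest were those of EFEMP1 in CA3 (-0.20) and Sub (-0.11), and the smallest was that of CCDC28A in CA1 (-0.004).

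**Figure D1:**
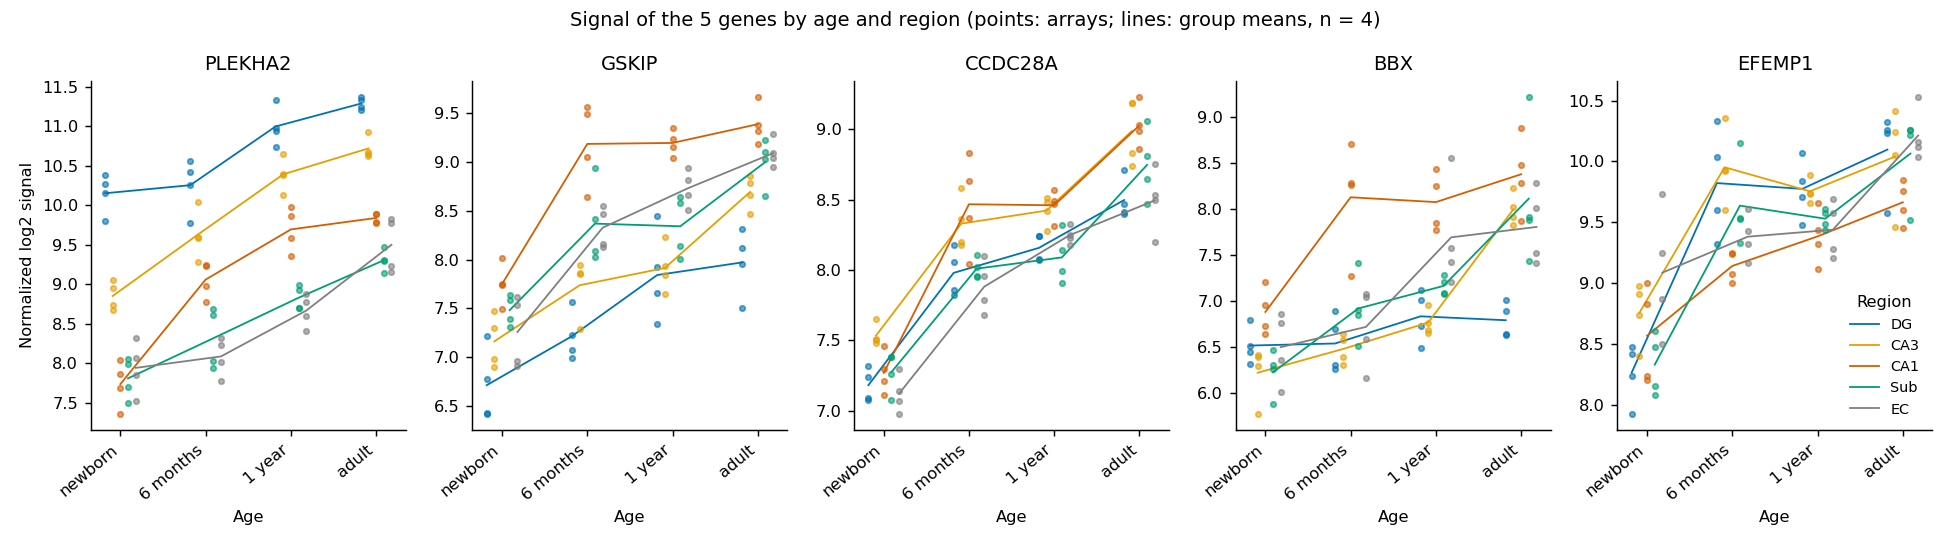
Normalized log2 signal (vertical axis) of each gene at the 4 ages (horizontal axis), with a point for each array and a line through the means of 4 arrays, coloured by region. PLEKHA2 in DG lay above all other regions at every age, and BBX in DG stayed between 6.27 and 7.12 on every array.

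PLEKHA2 climbed late in DG and EC and evenly in Sub. In DG the newborn arrays read 10.27, 10.38, 10.15 and 9.80, the 6-month arrays 10.56, 9.78, 10.42 and 10.25, the 1-year arrays 11.33, 10.74, 10.94 and 10.97 and the adult arrays 11.37, 11.20, 11.24 and 11.33. Newborns and 6-month-olds overlapped there, and every 1-year array was above both. In EC the means were 7.94 ± 0.338, 8.09 ± 0.243, 8.67 ± 0.202 and 9.50 ± 0.357 (SD, n = 4) from newborn to adult, so the largest step, 0.83, was the last one. Sub moved by 0.50, 0.51 and 0.48 over the 3 steps. Averaged over DG, EC and Sub, 18.0% of the adult minus newborn difference had been reached at 6 months and 61.8% at 1 year.

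In CA3, PLEKHA2 went from 8.85 ± 0.180 in newborns to 9.63 ± 0.314 at 6 months and 10.39 ± 0.211 at 1 year (SD, n = 4), all at a low GAPDH ratio. The adult CA3 arrays read 10.67, 10.93, 10.65 and 10.62, at a mean ratio of 2.74. In CA1 it moved from 7.73 ± 0.290 to 9.06 ± 0.223 (SD, n = 4) between birth and 6 months, over which the mean ratio went from 1.38 to 2.38. The part of the ratio in the CA1 step was not tested.

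GSKIP and CCDC28A had covered more of their difference by 6 months, 53.3% and 55.1% over DG, EC and Sub. GSKIP in EC read 7.54, 6.91, 7.62 and 6.96 in newborns, 8.47, 8.16, 8.55 and 8.13 at 6 months, 8.51, 8.66, 8.82 and 8.94 at 1 year and 9.04, 9.09, 8.95 and 9.29 in adults. Newborns were apart from all older animals there, and adults from 1-year-olds. In Sub, GSKIP stood still between 6 months (8.37 ± 0.418) and 1 year (8.34 ± 0.312; SD, n = 4) and was 0.66 higher in adults. In DG its values spread more, with 1-year arrays from 7.34 to 8.45 that overlapped the adult range of 7.50 to 8.31.

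CCDC28A varied little within groups in DG, with SDs from 0.0952 to 0.168. There the newborn arrays read 7.08, 7.32, 7.24 and 7.09, the 6-month arrays 7.86, 8.18, 8.06 and 7.82, the 1-year arrays 8.24, 8.07, 8.24 and 8.08 and the adult arrays 8.40, 8.71, 8.41 and 8.47. Newborns lay below all older animals and adults above all younger ones, while 6 months and 1 year overlapped. Newborn and 6-month arrays of CCDC28A did not overlap in any of the 5 regions. The choice of the genes used the newborn arrays, and the share of all genes so separated was not computed. Nothing is therefore read from this separation, or from those of newborns given for the other genes. The first step of CCDC28A was between 0.74 and 0.80 in DG, CA3, Sub and EC. It was 1.20 in CA1, the region whose GAPDH ratio changed at that step.

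EFEMP1 had its largest step before 6 months in DG, CA3 and Sub, did not rise there from 6 months to 1 year, and was higher again in adults. In DG the newborn arrays read 7.93, 8.24, 8.48 and 8.42, and the 6-month arrays 10.33, 10.04, 9.60 and 9.32. The 1-year arrays read 9.84, 10.07, 9.48 and 9.71 and the adult arrays 10.23, 10.32, 10.26 and 9.58. Newborns were below every older array in DG, and the 3 older groups overlapped. Over DG, EC and Sub, 67.3% of the difference was reached at 6 months, the mean then moved by -0.03 to 1 year and by 0.54 to adulthood.

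EFEMP1 in EC took another course. Its newborn arrays read 9.25, 8.50, 8.87 and 9.73, with a mean of 9.09 that was above the newborn mean of each other region, and overlapped the 6-month arrays at 9.43, 9.17, 9.61 and 9.32. Only 26.3% of the EC difference was reached by 6 months, and the last step, from 9.44 ± 0.228 to 10.21 ± 0.215 (SD, n = 4), was 0.77. Animal number 4 was low in DG (9.58), Sub (9.52) and CA3 (9.46) but not in EC (10.16). Without it the adult minus newborn difference was 2.01 in place of 1.83 in DG and 1.91 in place of 1.73 in Sub.

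BBX had unlike courses in different regions, with adult minus newborn differences from 0.27 in DG to 1.88 in Sub. In CA3 the newborn arrays read 6.42, 5.78, 6.40 and 6.30, the 6-month arrays 6.40, 6.64, 6.31 and 6.58 and the 1-year arrays 6.69, 6.77, 6.96 and 6.66. The adult CA3 arrays read 8.23, 7.83, 7.92 and 8.02. Of a difference of 1.78, 1.23 came in the last step, at which the GAPDH ratio of CA3 went from 1.16 to 2.74. In CA1, 1.25 of 1.497 came between birth and 6 months, when the ratio of CA1 went from 1.38 to 2.38. From 6 months to 1 year the ratio there went on to 3.16, and BBX moved by -0.06.

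Among arrays of the same group in DG, EC and Sub, BBX was high on the 2 arrays of high ratio. In adult Sub it read 7.44, 7.92, 7.88 and, on the array of number 4 with the high ratio, 9.22, and the difference from newborns was 1.52 without that array and 1.88 with it. In EC at 1 year it read 7.21, 7.43, 7.58 and, on the array of number 8, 8.56, and the step from 6 months was 0.68 without that array and 0.97 with it. The deviations of BBX from its group means had a Pearson r of 0.651 with those of the ratio over the 48 arrays of DG, EC and Sub, and 0.41 over the 42 arrays without numbers 4 and 8. The same r over 48 arrays was 0.0942 for PLEKHA2, 0.134 for GSKIP, 0.317 for CCDC28A and -0.318 for EFEMP1. These are descriptions over arrays that share animals.

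**Figure D2:**
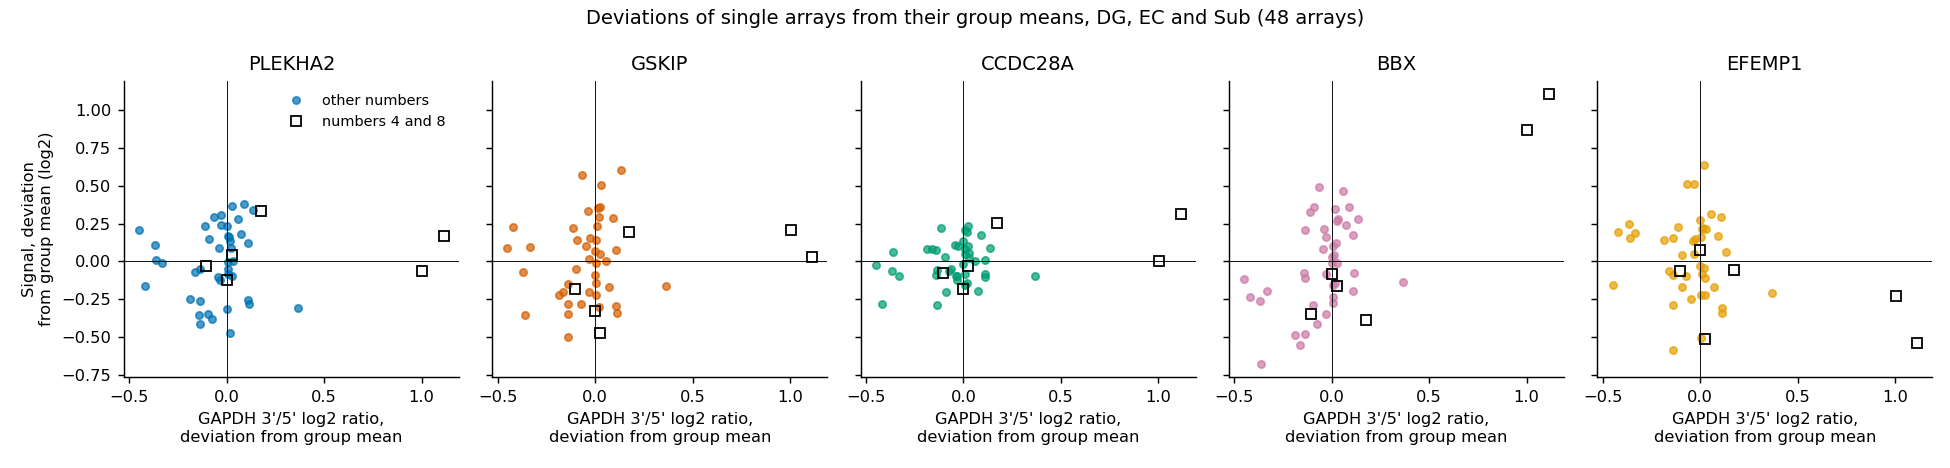
Deviation of each array from its group mean in log2 signal (vertical axis) against the deviation of its GAPDH 3'/5' log2 ratio (horizontal axis), for the 48 arrays of DG, EC and Sub. Numbers 4 and 8 are drawn as squares, and the 2 squares far to the right are the Sub array of number 4 and the EC array of number 8, which are also the highest points for BBX.

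**Figure D3:**
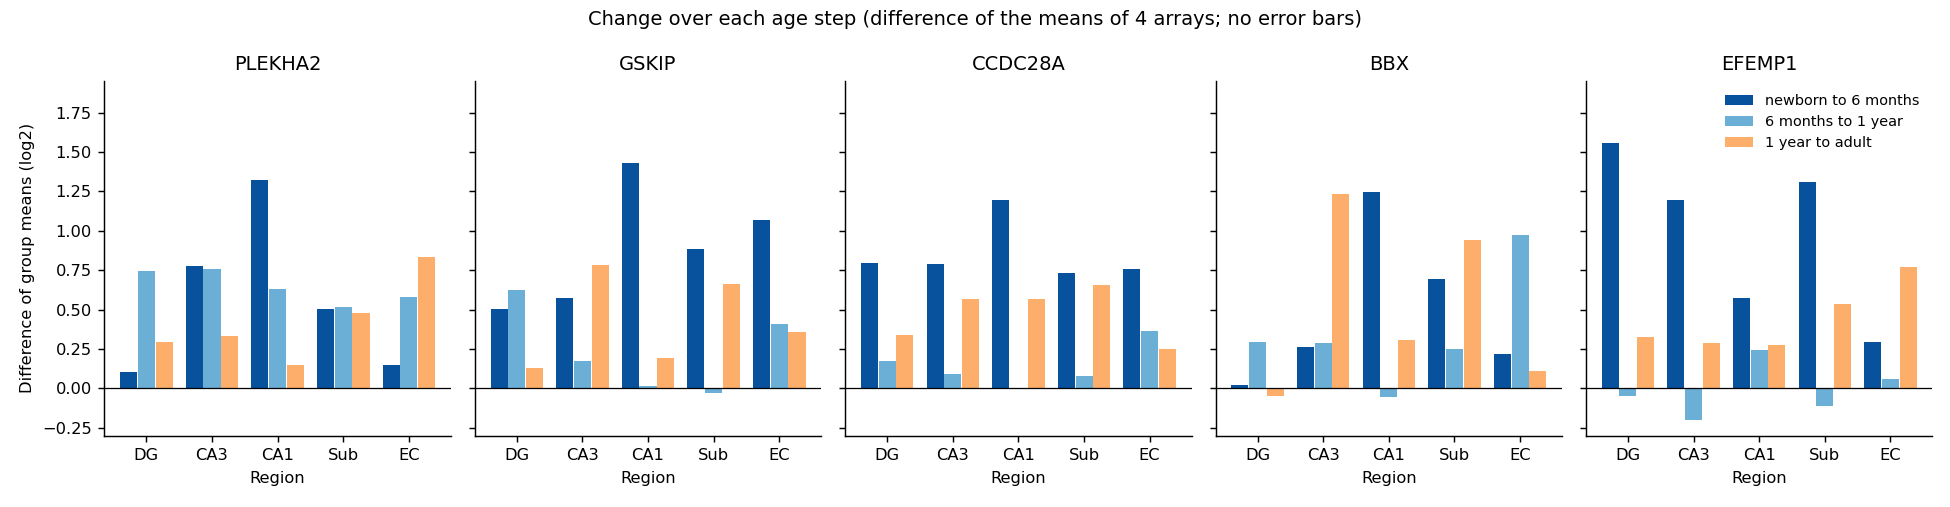
Difference of group means (vertical axis, log2) over each of the 3 age steps, by region (horizontal axis) and gene, with 4 arrays behind each mean and no error bars. EFEMP1 has its tallest bars in the first step in DG, CA3 and Sub, and BBX has its tallest CA3 bar, 1.23, in the last step.

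The difference of means from 6 months to 1 year used no newborn or adult array, and it was tested. The genes had been described as steady risers over the 4 ages. This step is therefore not shown to be independent of their choice. It was fitted on the mean of DG, CA3, EC and Sub of each animal with limma and Benjamini-Hochberg adjustment over 19775 genes. The SEs and p-values, here and region by region, used a spread estimated over all 4 ages. That spread thus took in newborns and adults, with the high-ratio adult CA3 arrays in the fit over 4 regions. No gene passed an adjusted p of 0.05 (0% called), while 1454 had an unadjusted p under 0.05. PLEKHA2 had the rank of 4 among all p-values: its animal means were 9.36, 8.69, 9.25 and 8.97 at 6 months and 9.85, 9.59, 9.78 and 9.66 at 1 year. The ages did not overlap, and the difference was 0.65 (SE 0.114, limma adjusted p = 0.0942).

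With single arrays and the animal number as a random block, PLEKHA2 passed at the same difference (limma adjusted p = 2.36e-05) among 26 genes called. That fit gave all genes 1 correlation between regions of an animal, 0.057, whereas the deviations of PLEKHA2 had a mean correlation of 0.392 between regions. The call of PLEKHA2 therefore differed between the fits.

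BBX ranked 8 by p in that step, with animal means of 6.90, 6.66, 6.65 and 6.47 at 6 months and 7.06, 7.07, 7.14 and 7.20 at 1 year, which did not overlap. Its difference was 0.45 (SE 0.0875, limma adjusted p = 0.172). Such separation upward was found for 2.09% of all genes and for 2 of these 5. Nothing is read from these shares, since the genes were chosen as risers. GSKIP differed by 0.30 (SE 0.088, adjusted p = 0.427), CCDC28A by 0.18 (SE 0.0716, adjusted p = 0.61) and EFEMP1 by -0.08 (SE 0.15, adjusted p = 0.961), each with overlapping ages in the same limma fit. Leaving out 1 animal at a time gave PLEKHA2 adjusted p-values from 0.0429 to 0.362 and BBX from 0.047 to 0.601, and each passed in 1 of 8 such fits.

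Region by region the same step called 0.0809% of genes in DG, 0.00506% in CA3, 0.0405% in CA1, 0.00506% in Sub and 0% in EC, and none of the 5 genes was among them. PLEKHA2 came nearest in DG, at 0.74 (SE 0.157, limma adjusted p = 0.122). In CA3 it differed by 0.76 (SE 0.14, adjusted p = 0.287). BBX had its largest step in EC, 0.97 (SE 0.263, limma adjusted p = 0.283), which includes the high-ratio array of number 8.

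The 5 genes were arranged differently over the regions, a contrast that did not choose them. PLEKHA2 was highest in DG at every age. DG was above EC in 16 of 16 animals, by 2.13 (4.36-fold, SE 0.0824, limma adjusted p = 1.43e-13). It was above Sub in 16 of 16, by 2.11 (4.31-fold, SE 0.0471, limma adjusted p = 1.31e-15), the smallest p of all genes in that comparison. These comparisons called 42% and 29.6% of all genes. Sub and EC differed by 0.02 (SE 0.0663, adjusted p = 0.885), in a comparison that called 23.6% of genes and none of these 5.

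CA3 held the second level of PLEKHA2 at every age. Averaged over newborns, 6-month-olds and 1-year-olds it exceeded the mean of DG, EC and Sub by 0.62 (SE 0.0534, limma adjusted p = 2.97e-07), in 11 of 12 animals. The difference was 0.22 in newborns, with 1 animal at -0.02, 0.74 at 6 months and 0.89 at 1 year. Newborn CA1, the only CA1 group with a low ratio, was 0.90 below that mean in 4 of 4 animals (SE 0.112, limma adjusted p = 1.8e-05). For newborn CA1, here and for the other genes, the spread behind the SE and p came from animals of all ages. It thus took in the CA1 groups of high ratio. All genes passed these comparisons in 32.2% of cases for CA3 and 4.35% for CA1.

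GSKIP was lowest in DG at every age and highest in CA1, where the groups after birth had the high ratio. DG was below EC by 0.92 (1.89-fold, SE 0.102, limma adjusted p = 3.39e-07) and below Sub by 0.86 (1.82-fold, SE 0.0995, limma adjusted p = 1.73e-06), in 16 of 16 animals each. Newborn CA1 was 0.60 above the mean of DG, EC and Sub in 4 of 4 animals (SE 0.1, limma adjusted p = 0.000488). CA3 was 0.20 below that mean and did not pass (SE 0.0804, adjusted p = 0.0619), but passed on the deposited values without quantile normalization (-0.27, adjusted p = 0.0236) and with each array centred (-0.30, adjusted p = 0.0181).

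CCDC28A and EFEMP1 were nearly even over DG, Sub and EC, and no such pair of regions passed for either. CCDC28A was higher in CA3 than in the mean of these 3 regions in 12 of 12 animals, by 0.32 (SE 0.0391, limma adjusted p = 9.45e-06). EFEMP1 was higher there in 12 of 12 animals too, by 0.23 (SE 0.0382, limma adjusted p = 0.000183). The EFEMP1 call was lost with the GAPDH ratio as a covariate (0.19, adjusted p = 0.108) and without pairing regions by animal (adjusted p = 0.0528). Over all genes that covariate took the CA3 calls from 6365 to 1760. In newborn EFEMP1 the order of regions was another one, with DG 0.82 below EC, against 0.44 above it at 6 months, a change that was not tested.

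Over all ages together BBX was lower in DG than in EC by 0.51 (SE 0.118, limma adjusted p = 0.00152; lower in 11 of 16 animals) and than in Sub by 0.43 (SE 0.123, limma adjusted p = 0.011; lower in 12 of 16). These means pool unlike ages: DG minus EC was 0.02 in newborns, -0.18 at 6 months, -0.86 at 1 year and -1.01 in adults, and DG minus Sub was 0.29 in newborns and -1.32 in adults. With the ratio as a covariate the differences were -0.25 (limma adjusted p = 0.149) and -0.08 (adjusted p = 0.685). The CA3 difference of -0.30 (SE 0.0657, adjusted p = 0.00203) likewise became -0.16 (adjusted p = 0.444). The 3 region calls of BBX were thus lost with that covariate. Over all genes the same covariate took the CA3 calls from 6365 to 1760, so most CA3 calls were lost with it. The counts for DG against EC and DG against Sub stayed at 6146 and 4416 or more under every setting. Newborn CA1 was 0.47 above the other regions in 4 of 4 animals (SE 0.165, adjusted p = 0.145).

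**Figure D4:**
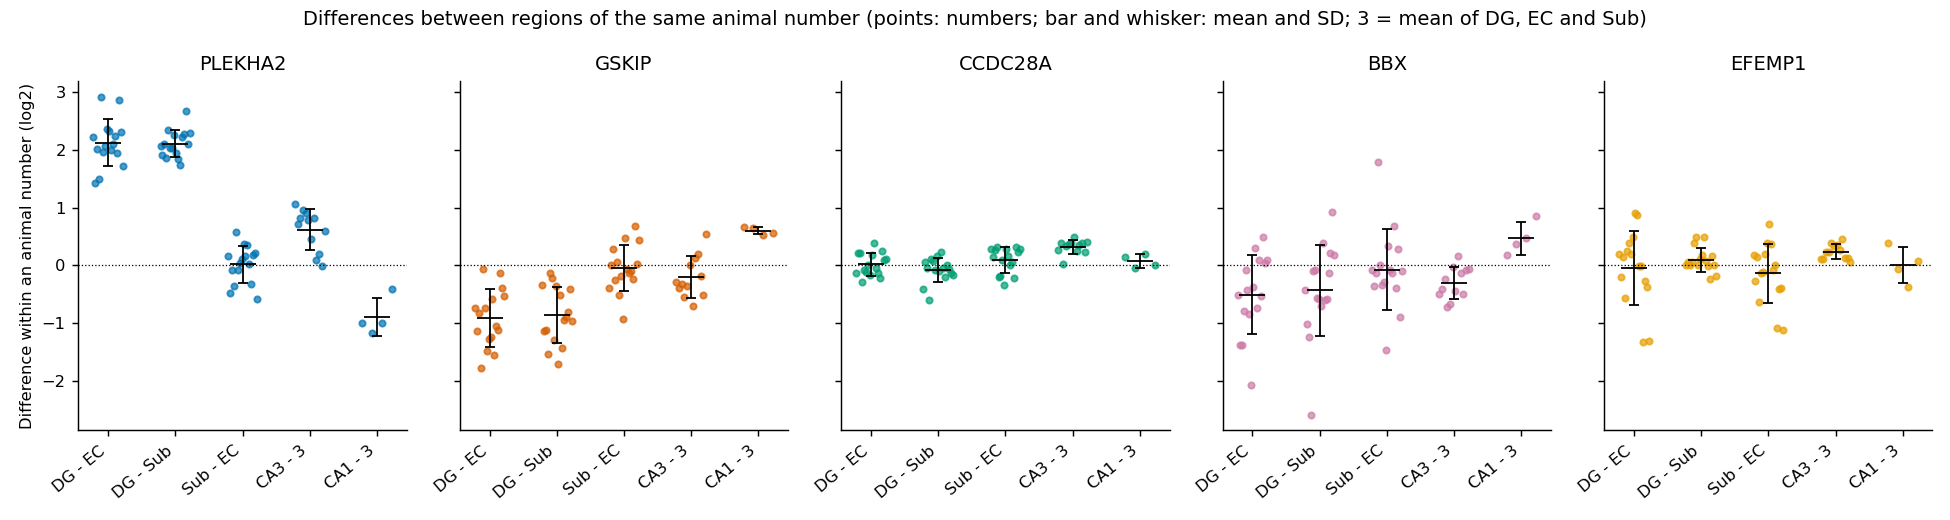
Difference between regions within an animal number (vertical axis, log2) for 5 comparisons (horizontal axis; 3 stands for the mean of DG, EC and Sub), with a point per animal and bars for the mean and SD. PLEKHA2 lies above 0 and GSKIP below 0 for DG against EC and Sub in 16 of 16 animals, and the BBX points for DG against EC and Sub lie on both sides of 0.

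GSKIP and CCDC28A each had 1 probe set, so nothing on the array could be set beside them. The probe set of the antisense gene CCDC28A-AS1 had a mean of 4.01, and its adult minus newborn difference was -0.04. PLEKHA2 had 2 further probe sets with means of 4.68 and 4.29, below the median of 5.98 over genes, and differences of 0.09 and 0.06. EFEMP1 had 2 further ones at 4.84 and 4.55, with differences of 0.07 and 0.22. The rises of both genes thus rest on 1 probe set each.

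The 7 probe sets of BBX disagreed. The one used (mean 7.14) and another (6.44) were 1.35 and 1.08 higher in adults over the 5 regions, and their 20 group means had a Pearson r of 0.929. Another one with a mean of 6.85, close to that of the one used, was 0.38 higher. It was 0.20 higher in CA3 and -0.26 in CA1, where the one used was 1.78 and 1.497 higher. A probe set with a mean of 5.22 was -0.20 in CA3 and -0.34 in CA1 but 0.70 in EC and 0.48 in DG. In CA1 the direction for BBX therefore depended on the probe set, also between the one used and the one at 6.85. In CA3 the size of the rise depended on it, and only the probe set at 5.22, below the median of 5.98 over genes, was lower in adults.

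**Figure D5:**
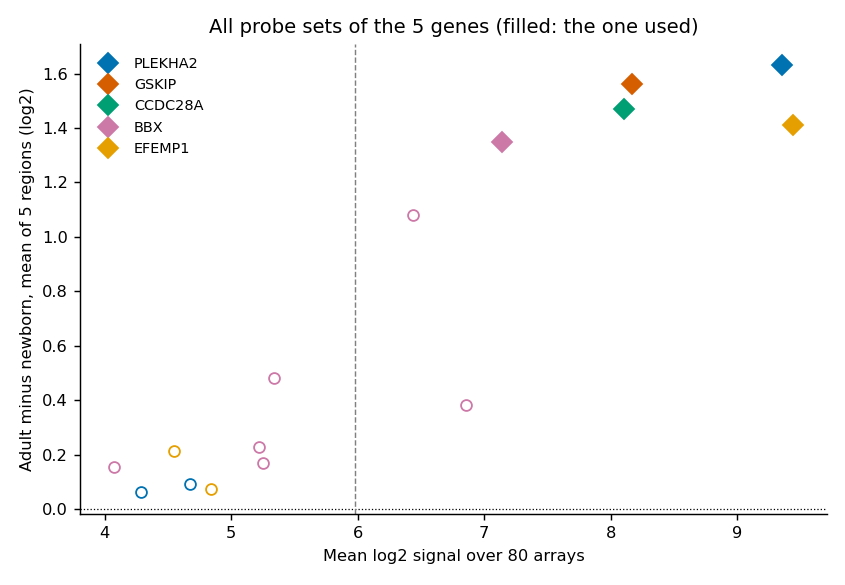
Adult minus newborn difference averaged over 5 regions (vertical axis, log2) against mean log2 signal over 80 arrays (horizontal axis) for the 15 probe sets, filled where the probe set stood for its gene; the dashed line is the median of gene means, 5.98. The further probe sets of PLEKHA2 and EFEMP1 lie left of that line near 0, and those of BBX lie between 0.155 and 1.08.

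Over the 20 group means, which share animals and arrays, GSKIP and BBX had a Pearson r of 0.92, CCDC28A and EFEMP1 of 0.807 and PLEKHA2 and GSKIP of 0.0485. The 20 groups include the 4 with a high ratio. Over the 12 group means of DG, EC and Sub the same pairs had an r of 0.866, 0.892 and -0.156. Among deviations within groups over 80 arrays GSKIP and BBX had an r of 0.545. The nearest courses were sought among genes other than the 5, with a mean above the median of gene means. Symbols of LOC, LINC or open reading frame type were left out. Within that search the courses most like PLEKHA2 were those of BTBD3 (r = 0.94 over 20 group means), SLC47A1 (0.93) and CRADD (0.912). CRADD was only 0.14 higher in adults. GSKIP was nearest to PURA (0.966), CACYBP (0.957) and IGIP (0.952). CCDC28A was nearest to CREBL2 (0.94), TPP1 (0.931), a lysosomal peptidase, and KIAA0513 (0.922). BBX was nearest to FBXO33 (0.94), PURA (0.919) and DOK6 (0.913), and EFEMP1 to TNFSF13 (0.903), EPDR1 (0.881) and SLC25A28 (0.843). Over the 12 group means of DG, EC and Sub, r for these nearest courses ran from 0.848 (BBX and PURA) to 0.967 (GSKIP and CACYBP).

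Genes related to the 5 by pathway or family were tested in adults against newborns over DG, EC and Sub, where 13.2% of all genes passed and the median difference was 0.00771. Of the phosphoinositide 3-kinase and PI(3,4)P2 list, 4 of 18 measured genes rose and 0 fell, with a median of 0.10. They were MPDZ (0.54), a scaffold with PDZ domains, PIK3CB (0.40), a catalytic subunit of the kinase, PLEKHA1 (0.48), the paralog of PLEKHA2, and INPP4B (0.42), a phosphatase of PI(3,4)P2. Of the GSK3 and protein kinase A list, 7 of 23 rose and 3 fell, with a median of 0.04. The anchoring proteins AKAP11 (0.67) and AKAP12 (0.48) and the catalytic subunit PRKACB (0.45) rose, and APC (-0.65), a part of the beta-catenin destruction complex, fell with PRKAR2B (-0.53) and AXIN2 (-0.42), both named after their values were seen. PRKACB lost its call in 1 of 17 alternatives, with the probe set of largest variance (0.33, limma adjusted p = 0.532). AKAP12 lost its own in 1 of 17, over all 5 regions (0.26, limma adjusted p = 0.0807), and INPP4B in 2 of 16.

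For the relatives of CCDC28A, 1 of 13 genes rose and 1 fell, with a median of 0.09: BBS5 was 0.36 higher and CCDC28B itself 0.36 lower. BBS5 lost its call in 9 of 17 alternatives, among them the deposited values (limma adjusted p = 0.069). The values for TTC8 (0.16) and MKKS (0.15) did not pass. Of the HMG box genes 1 of 23 rose and 7 fell, with a median of -0.13. SOX4 (-2.27) and SOX11 (-2.12), factors of immature neurons, HMGB3 (-0.88) and TOX3 (-0.64) fell, and HBP1 (0.24), named after its value was seen, rose. Of the fibulin and elastic fibre list 0 of 23 rose and 7 fell, with a median of -0.04, among them LTBP1 (-0.51), the crosslinking enzyme LOX (-0.47), the microfibril protein MFAP2 (-0.36) and LOXL1 (-0.34).

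Markers of cell types moved over the same ages, and in bulk tissue fewer cells of a type and less RNA per cell cannot be told apart. Of the immature neuron markers 7 of 7 measured fell, among them DPYSL3 (-2.20), SOX11 (-2.12) and DCX (-1.49), and the summed signal of the list went from 12772 to 16994 in newborn arrays to 4160 to 7368 in adult arrays. Of the oligodendrocyte markers 6 of 11 rose, with ENPP2 (1.45), CNDP1 (1.02) and MOG (0.77), and the sum ran from 2345 to 10282 in newborns and from 4192 to 15160 in adults. Over all 5 regions 3 of the 11 rose and 3 fell, the latter, named after their values were seen, MAG (-0.82), CLDN11 (-0.75) and MBP (-0.51), and MOG (0.08) did not pass. Of the precursor markers 4 of 8 fell, LHFPL3 (-0.86), PDGFRA (-0.78), SOX6 (-0.54) and, named after its value was seen, OLIG2 (-0.31). Of the mature neuron markers SNAP25 (0.63) and SYT1 (0.41) rose and STMN2 (-0.56) fell, of 8. 

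Of the meningeal and fibroblast markers 0 of 8 rose and 5 fell, COL3A1 (-1.95), FN1 (-1.14) and DCN (-0.44) with, named after their values were seen, COL1A2 (-0.73) and PDGFRB (-0.21). DCN lost its call in 7 of 17 alternatives, among them the random replicate block (limma adjusted p = 0.0578) and the fit without numbers 4 and 8 (0.0553). The sum of that list ran from 1147 to 4931 in newborns and from 700 to 1784 in adults. Of the astrocyte markers GJA1 (0.40) rose and ALDH1L1 (-0.47) and SOX9 (-0.39) fell, of 10, and GJA1 and SOX9 each lost the call in 9 of 17 alternatives. Over all 5 regions, which take in the groups of high ratio, 0 of the 10 rose and 5 fell. Among the 5 were GFAP (-0.96) and AQP4 (-0.49), named after their values were seen. Of the endothelial markers CLDN5 (-0.34) and CDH5 (-0.37) fell and VWF (0.32) did not pass, of 8. None of 8 choroid plexus markers passed in limma, with PRLR at -0.05, AQP1 at 0.04 and FOLR1 at 0.07, and none of 7 microglia markers did, with P2RY12 at -0.40, CX3CR1 at -0.40 and AIF1 at -0.32. The microglia count depended on the setting: CX3CR1 was called lower in 10 of 17 alternatives and AIF1 in 8 of 17, and over all 5 regions 5 of the 7 markers fell. Of the granule cell markers CALB1 (0.72) and STXBP6 (0.57) rose and BHLHE22 (-1.08) fell, of 7. The part of these marker shifts in the rises of the 5 genes was not tested.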

How the data were processed

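RNA was extracted with Trizol and labelled with biotin in 2 amplification cycles, per the labels' protocols. The values deposited by the authors are on a log2 scale, from 3.42 to 14.5, for 54675 probe sets on 80 arrays; how they were summarised and scaled is not given in the sources used here. Human probes read monkey RNA, so the order of levels between genes was not read, apart from uses that share that limit. SYT1 and SNAP25 were called high, and probe sets were set beside the median of gene means. Summed signals of marker lists were compared between ages only. The 80 arrays were quantile normalized, and each of 19775 genes with its own symbol (41091 probe sets with 1 symbol, 1801 with several, 11721 with none) was taken as its highest-mean probe set.

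Tests used limma 3.58.1 in R 4.3.3 on animal means or differences within an animal, with Benjamini-Hochberg adjustment over all genes and a threshold of 0.05. The fits were tested on simulated data in which every array was drawn independently. That simulation did not cover the correlation between regions of an animal. That each monkey gave all 5 regions is stated in the series' design text; arrays of 1 number deviated together (mean correlation 0.123, and -0.0409 between numbers), and 93 of 160 such pairs exceeded 0.1. The p-values set a difference against the spread over these animals, of their means or of differences within them, which limma moderates over genes.

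The members and lists were chosen with earlier results of these data known. Besides the 5 genes, the 4 genes of lowest p of each of 5 related lists, the 3 of lowest p of each of 10 cell type lists and the 3 nearest courses were named. The GAPDH ratio was read from the deposited values; it was first read from the normalized values, and this choice was made after both had been seen. Arrays limit precision by their number.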

Additional observations from a re-analysis of the deposited data

Results flagged for a closer look

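Of the 100 groups of 4 arrays examined for the 5 genes, 4 held an array far from the other 3 by Dixon's criterion, which chance gives in about 1 in 20 groups. EFEMP1 of animal number 4 was low in adult DG, at 9.58 against 10.23 to 10.32, and in adult Sub, at 9.52 against 10.22 to 10.26. The Sub array is the one with a GAPDH ratio of 2.72, and the DG array of that animal is in a group with a mean ratio of 1.35. PLEKHA2 of number 2 was high in adult CA3, at 10.93 against 10.62 to 10.67. GSKIP of number 11 was low in CA3 at 6 months, at 7.29 against 7.85 to 7.95, and the step from newborns was 0.72 without that array and 0.57 with it.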

How the results depend on the processing

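Of 935 values of the 5 genes under other settings, 919 kept their side of the threshold, 8 lost a call, 8 gained one and 0 reversed. Most of the 919 belong to tests that were not called and stayed so, and many are refits without 1 animal. A reversal was counted only where a fit gave a call. The 8 lost calls were those of BBX in DG minus EC, DG minus Sub and CA3, and of EFEMP1 in CA3. The count for 6 months to 1 year over 4 regions, 0 genes, became 1 on deposited values, 1 with DG, EC and Sub alone, 26 with the number as a random replicate block, and 0 to 4 without single animals. Adult minus newborn gave 5484 genes over all 5 regions, against 2612. The CA3 comparison gave 6365 genes, 1760 with the GAPDH ratio as covariate and 2522 with the ratio of the normalized values, a setting added after seeing the data. With that ratio BBX was again lost in DG minus EC (-0.24, limma adjusted p = 0.182), DG minus Sub (-0.10, 0.629) and CA3 (-0.19, 0.247), its correlation over 48 arrays was 0.658 and EFEMP1 kept its CA3 call. The newborn CA1 count ranged from 435 to 622 without single animals, against 861. Within regions the counts for 6 months to 1 year were 10 in DG among brighter genes and 34 with the probe set of largest variance (5 to 14 without single animals); 0 in CA3 with that probe set (0 to 1); 2 in CA1 on deposited or centred values or among brighter genes, 3 with that probe set and 1 without numbers 4 and 8 (1 to 6); and 0 in Sub on centred values or among brighter genes (0 to 1). In the 6-month to 1-year comparison the random replicate block changed the call of PLEKHA2 and of no other of the 5 genes; region comparisons without the replicate block lost the CA3 call of EFEMP1 (limma adjusted p = 0.0528) and no other.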
